A study of Mus musculus with 4 samples.

Results

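The genes described here are CC chemokines that draw monocytes into tissue, together with a receptor for them. The set of 9 symbols was Ccl2, Ccl7, Ccl8, Ccl12, Ccl3, Ccl4, Ccl5, Ccr2 and Cx3cr1, and a member was any of these symbols found in the gene list of the deposited count table. That held for 8 symbols among the 12584 genes of the table. Cx3cr1, the fractalkine receptor of patrolling monocytes, was not analysed here.

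CC chemokines are small secreted proteins that bind G-protein-coupled receptors on leukocytes and direct their migration. CCL2, CCL7, CCL8 and CCL12 are the monocyte chemoattractant proteins, and CCR2, their main receptor on classical monocytes, is needed for the release of these monocytes from bone marrow and their entry into inflamed tissue and tumours. CCL3, CCL4 and CCL5 recruit monocytes, T cells and NK cells, and CCL3 and CCL5 bind the receptor CCR1. Monocytes lower CCR2 as they mature into macrophages.

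Transcripts were counted in single immune cells sorted by CD45 from subcutaneous YUMM1.7OVA RTT melanomas. RTT cells are mouse melanoma cells that have become resistant to targeted therapy, and OVA is the model antigen ovalbumin. The hosts were Rag2-/- mice, which have no T or B cells of their own. On day 7 all mice received adoptive transfer (ACT) of OT-1 CD8+ T cells, which recognise ovalbumin, and tumours were taken on day 10, 72 h later.

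The 4 groups differed in the cancer cells or the drugs. CTRL tumours carried an mCherry control vector. IRF3/7 tumours overexpressed the interferon regulatory factors IRF3 and IRF7 in the cancer cells. COX2i tumours were of the mCherry line and were treated with celecoxib, an inhibitor of the prostaglandin-producing enzyme COX2. COX2i + 5-AZA tumours were of that line too and received celecoxib with 5-azacytidine, an inhibitor of DNA methyltransferases. Each group was 1 library made from 3 pooled tumours, so no difference between groups could be tested, no p-value is given, and tumour-to-tumour spread is unknown. Differences are given as log2 ratios, and intervals in parentheses are exact 95% intervals that cover counting error only.

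The libraries held between 6329 and 10032 cells and between 26356819 and 78722763 unique molecular identifiers (UMIs, each standing for 1 captured molecule). IRF3/7 was the shallowest, with a median of 3168 UMIs per cell against 6039.5 to 7502 in the others. Levels are in CPM, the UMIs of a gene per 1000000 UMIs of the cells summed. Irf7 stood at 4964 CPM in IRF3/7 and at 62.1 to 436 CPM in the other libraries, and Irf3 at 138 against 41.6 to 43.2 CPM. The cancer cells that carried the construct were not sorted for, so these levels in the sorted cells do not check the overexpression itself. Ptprc, which encodes CD45, was at 290 to 723 CPM. For B cells 2 of 3 markers were in the table and summed to 0.318 to 0.911 CPM, and for T cells all 6 were, with at most 26.2 CPM. No cell barcode was shared once the sample barcode was included, but 10018 cells (29.1%) came from a droplet whose barcode occurred in more than 1 library. The classes of cells used below are the annotated ones deposited by the authors.

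All 7 chemokine genes lie on chromosome 11 in 2 groups (mouse build GRCm38, GENCODE annotation). Ccl2 (chr11:82035571-82037453), Ccl7 (chr11:82045712-82047525), Ccl12 (chr11:82101845-82103400) and Ccl8 (chr11:82115185-82116799) follow each other on the plus strand, with the eosinophil chemokine gene Ccl11 between Ccl7 and Ccl12. Ccl5 (chr11:83525778-83530518, minus strand), Ccl3 (chr11:83647844-83649355, minus strand) and Ccl4 (chr11:83662584-83664683, plus strand) form the second group. Ccr2 lies on chromosome 9 (chr9:124101950-124113557, plus strand).

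Ccl12 and Ccl8 are neighbours whose levels behaved differently, and their upstream sequences are shown for that reason. RefSeq promoter sequences (GRCm38.p6) were found for 5 of the 9 symbols, 4 of them among the genes in the count table (Ccl8, Ccl12, Ccl3 and Ccr2). The 250 bases before the start of each gene aligned with 161 of 220 aligned bases identical (73.2%). Capitals mark the 3 runs of at least 8 aligned identical bases.
Ccl12, chr11:82101595-82101844, plus strand: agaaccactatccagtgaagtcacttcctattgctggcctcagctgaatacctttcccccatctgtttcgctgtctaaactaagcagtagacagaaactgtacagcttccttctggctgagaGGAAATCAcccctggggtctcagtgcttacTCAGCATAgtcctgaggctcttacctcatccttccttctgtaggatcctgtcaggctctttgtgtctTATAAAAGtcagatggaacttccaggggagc
Ccl8, chr11:82114935-82115184, plus strand: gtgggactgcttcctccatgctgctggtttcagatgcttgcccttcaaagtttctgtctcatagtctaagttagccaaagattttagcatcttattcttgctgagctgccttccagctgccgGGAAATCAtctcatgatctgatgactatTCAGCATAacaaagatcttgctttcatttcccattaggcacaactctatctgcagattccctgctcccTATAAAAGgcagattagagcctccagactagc

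The run nearest to the start holds TATAAAA, the letters of a TATA box, beginning 31 bases before the start of Ccl12 and 32 before that of Ccl8. On the strand of the gene, TATAAAA was present in 2 of the 5 promoters, those of Ccl12 and Ccl8, and in 3.02% of 32851 promoters of this length. A motif like the interferon-stimulated response element, a pair of GAAA words with 2 bases between them, was searched on both strands and was in 0 of the 5, against 2.98% of all promoters. The longest stretch of identical bases between the transcripts of any 2 of the 7 chemokine genes was 23 bases, between Ccl2 and Ccl7. Probe sequences were not used here, so cross-binding among these close relatives was not tested and their counts are uncertain to that extent.

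Across all cells, the 4 monocyte chemoattractant genes did not move as a block. In CTRL, IRF3/7, COX2i and COX2i + 5-AZA, in that order, Ccl2 was at 300, 475, 569 and 533 CPM. Ccl7 was at 387, 350, 751 and 644 CPM. Both were highest in the libraries treated with celecoxib. Ccl12, a chemoattractant found in mice but not in humans, was at 431, 375, 1170 and 1065 CPM, with the same 2 libraries on top. Ccl8 differed from the other 3, at 48.9, 40.3, 27.4 and 146 CPM. It was lowest in COX2i and highest in COX2i + 5-AZA.

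Ccl3, Ccl4 and Ccl5 had their highest levels over all cells in IRF3/7. Ccl3 varied least, at 190, 290, 190 and 274 CPM in the same order of libraries. Ccl4 was at 106, 666, 204 and 295 CPM. Ccl5 was at 19.9, 527, 26.8 and 272 CPM, so it was near its lowest level in CTRL and COX2i alike. The receptor Ccr2 was at 372, 517, 475 and 364 CPM, a narrow range beside those of Ccl4 and Ccl5.

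**Figure D1:**
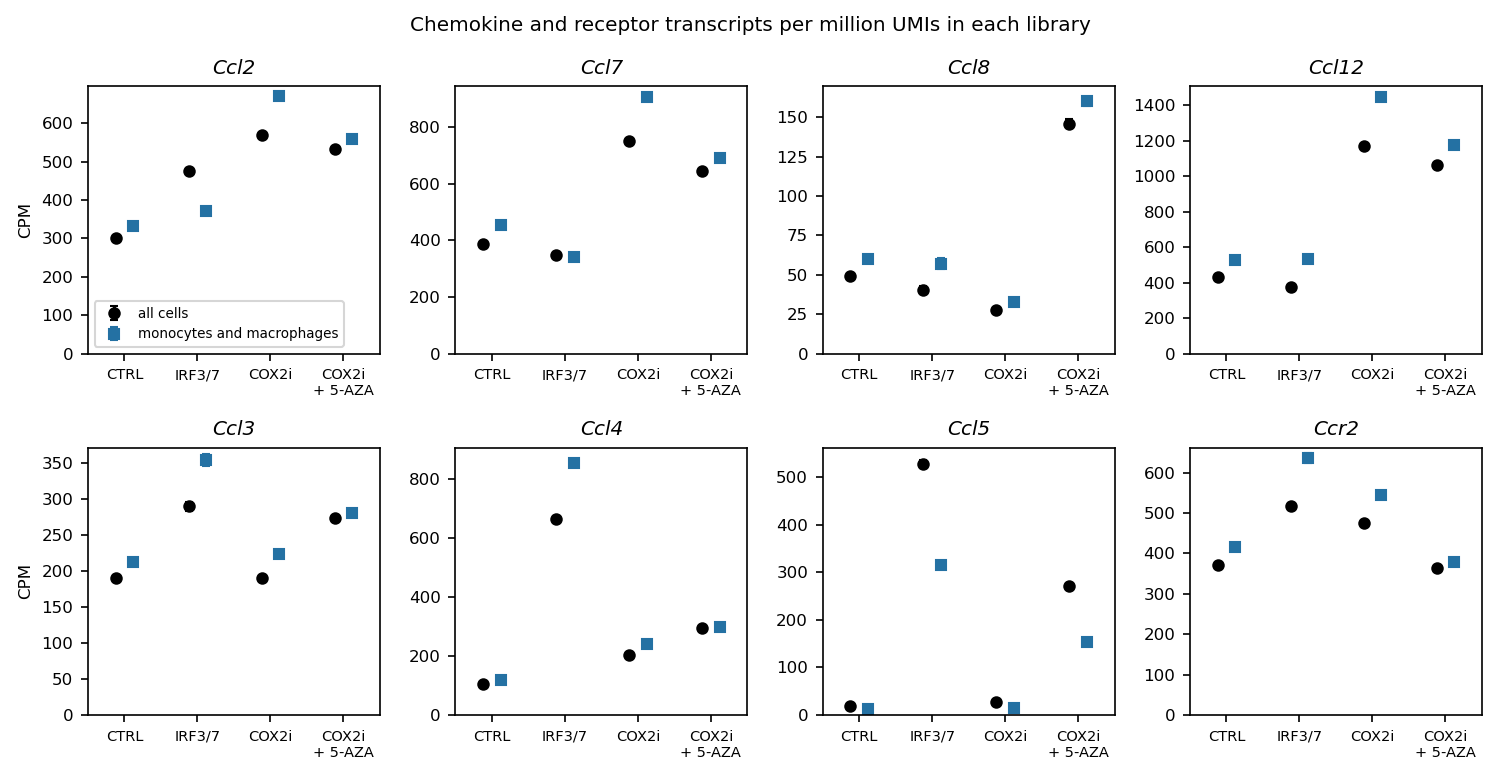
Level of each gene in CPM in the 4 libraries, over all cells (black circles) and over annotated monocytes and macrophages together (blue squares), with exact 95% Poisson intervals for counting error, which are mostly smaller than the symbols. Ccl4 and Ccl5 stand highest in IRF3/7, Ccl7 and Ccl12 in COX2i, and Ccl8 in COX2i + 5-AZA.

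The classes that held these transcripts differed between genes. Monocytes and macrophages together held 98.7% of Ccl12 UMIs in CTRL, 96.5% in IRF3/7, 98.0% in COX2i and more in COX2i + 5-AZA. For Ccl8 the lowest of the 4 shares was 94.1%, in COX2i. Ccl12 and Ccl8 were in this sense products of monocytes and macrophages in all 4 libraries. Of all UMIs these cells held 80.5%, 67.8%, 79.4% and 89.7% in CTRL, IRF3/7, COX2i and COX2i + 5-AZA. The corresponding shares of Ccl2 were 89.0%, 53.0%, 93.7% and 94.0%, and in IRF3/7 44.7% (43.8 to 45.6) of the Ccl2 UMIs lay in 172 cells of the non-immune class, which held 17.0% of all UMIs of that library. This class is named Myofibrobl in the annotation and was left after the CD45 sort. Those cells also held 31.0% (30.1 to 32.0) of the Ccl7 UMIs of IRF3/7, against 1.69% to 2.66% in the other libraries.

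Among macrophage classes of CTRL, COX2i and COX2i + 5-AZA, the proliferating class TAM_cycling and the complement-rich class TAM_C1q carried most of the Ccl2, Ccl7 and Ccl12. In COX2i, TAM_cycling alone held 60.1% of Ccl2, 60.3% of Ccl7 and 65.8% of Ccl12 UMIs, with 44.9% of all UMIs. In IRF3/7 the inflammatory monocyte class Infl_Mono held 45.6%, 38.8% and 71.9% of the same genes with 55.9% of all UMIs, so its shares of Ccl2 and Ccl7 were below its share of the library. TAM_H2Ab1, a class of macrophages named for an MHC class II gene, led among the macrophages of IRF3/7 and held 24.0% of Ccl7 and 20.0% of Ccl12 UMIs there with 385 cells and 7.68% of all UMIs.

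**Figure D2:**
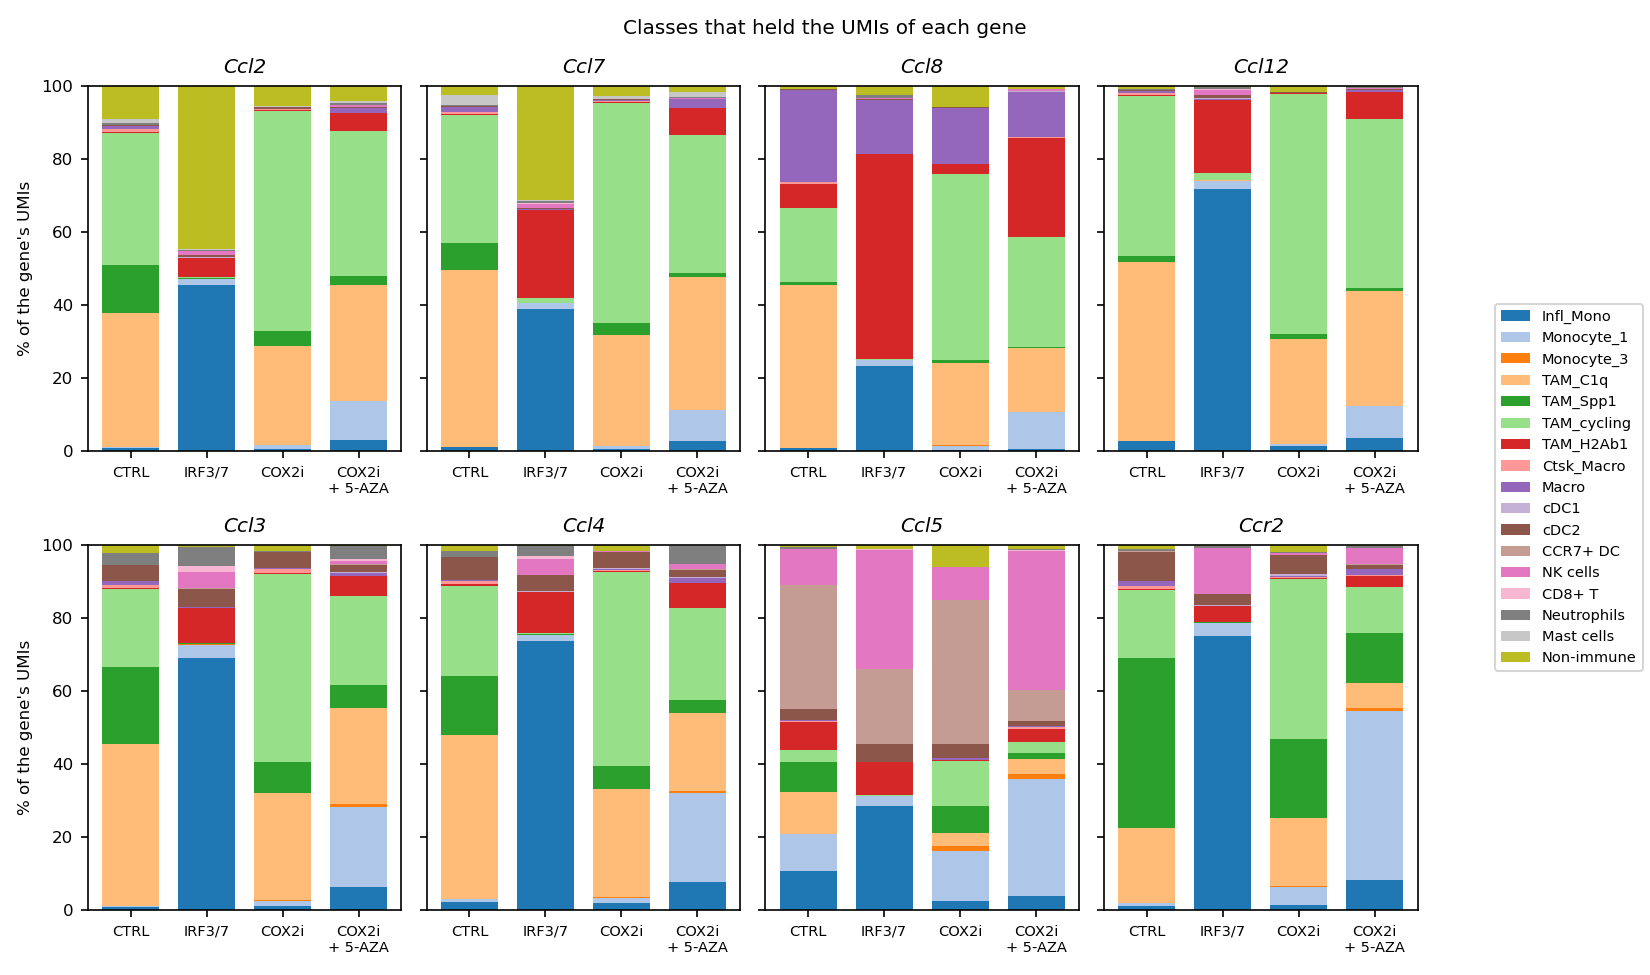
Share of the UMIs of each gene, in percent, that lay in each annotated class, as stacked bars for the 4 libraries. The non-immune class holds 44.7% of Ccl2 and 31.0% of Ccl7 in IRF3/7, CCR7+ DC hold 20.7% and NK cells 32.6% of Ccl5 there, and Infl_Mono, with 55.9% of all UMIs, holds 75.2% of Ccr2.

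Levels per class set Ccl8 and Ccr2 apart from the rest. Ccl8 had its highest level per UMI in the class named Macro, at 1692 CPM (1579 to 1810) in 73 CTRL cells, 1620 CPM (1451 to 1805) in 23 COX2i cells and 1443 CPM (1368 to 1522) in 105 COX2i + 5-AZA cells. Between COX2i + 5-AZA and CTRL this was a log2 ratio of -0.23 (-0.35 to -0.10) in Macro, while over all cells Ccl8 stood at 146 against 48.9 CPM. The 19 TAM_H2Ab1 cells of CTRL held 224 Ccl8 UMIs, 6.74% of them with 0.176% of all UMIs. That is more per UMI than in Macro of CTRL, which had 0.730% of all UMIs. Macro is a small class and held 25.2% of the Ccl8 UMIs of CTRL, 15.3% of those of COX2i and 12.4% of those of COX2i + 5-AZA, whereas TAM_C1q held 44.6% in CTRL, and TAM_cycling 51.0% in COX2i and 30.2% in COX2i + 5-AZA. In IRF3/7 the class had 4 cells, and TAM_H2Ab1 led among classes of at least 50 cells with 296 CPM (272 to 320). Ccl8 was also confined to few cells, since the 1% of cells with the most Ccl8 UMIs held 63.9% of them in CTRL, 68.3% in COX2i and 56.1% in COX2i + 5-AZA. For Ccr2 that figure was 6.37% to 7.78% over the 4 libraries.

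Ccr2 was highest among macrophage classes in TAM_Spp1, at 1141 CPM in CTRL, 1177 CPM in COX2i and 768 CPM in COX2i + 5-AZA. That class is named for the secreted phosphoprotein osteopontin and is annotated as macrophage, yet in these 3 libraries it stood above the level of Infl_Mono (615, 773 and 581 CPM). Against Monocyte_1, a further monocyte class, it was not distinct by counting error in COX2i (1134 CPM in Monocyte_1) and higher in COX2i + 5-AZA (610 CPM). In CTRL, COX2i and COX2i + 5-AZA, the 6 macrophage markers summed to 50551, 17395 and 6888 CPM in Infl_Mono. In TAM_Spp1 they summed to 15565, 11104 and 9048 CPM. The 3 monocyte markers available summed to 4112, 7578 and 10177 CPM in Infl_Mono and to 921, 1059 and 1605 CPM in TAM_Spp1. The part of this in the Ccr2 levels was not tested. After each cell was thinned to 2000 UMIs, 81.6%, 84.5% and 67.1% of TAM_Spp1 cells had a Ccr2 UMI, against 91.7%, 94.8% and 86.1% before thinning at median depths of 4047.0, 4423.5 and 5417.0 UMIs. In the non-immune class, which should lack the receptor, 20 of 541 thinned cells had one in CTRL (95% interval 2.27% to 5.65%), and the share was 7.05% (5.44 to 8.97) in COX2i and 5.03% in COX2i + 5-AZA, at median depths of 15007.5, 11036.0 and 15211.5 UMIs. The low class was chosen after its values were seen. In Ctsk_Macro, the macrophage class named for cathepsin K, Ccr2 was at 63.5 CPM in CTRL, above the 31.2 CPM of the non-immune class, and at 59.6 CPM in COX2i, where the non-immune class had 62.5 CPM. The thinned shares in Ctsk_Macro were 5.63% (3.52 to 8.48) in CTRL and 8.67% (4.70 to 14.4) in COX2i, and in both libraries the intervals overlapped with those of the non-immune class.

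NK cells were a further place of Ccr2, at 839 CPM in IRF3/7, 851 CPM in COX2i and 662 CPM in COX2i + 5-AZA. They held 12.4% of the Ccr2 UMIs of IRF3/7, with 7.63% of all UMIs. In cDC2, the conventional dendritic cells of type 2, Ccr2 was at 732, 309, 602 and 228 CPM in CTRL, IRF3/7, COX2i and COX2i + 5-AZA. It was thus lower in cDC2 of the libraries with IRF3/7 or 5-AZA than in those of the other pair.

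Ccl5 was carried at high levels by dendritic cells of one class and by NK cells. In CCR7+ DC, the dendritic cells annotated as DC3, it was at 13841 CPM (13339 to 14356) in 66 IRF3/7 cells and 4441 CPM (4237 to 4652) in 87 COX2i + 5-AZA cells. In the 10 CTRL cells and 28 COX2i cells of that class it was at 10393 CPM (9462 to 11391) and 7550 CPM (7046 to 8080). These intervals do not hold the spread between so few cells. CCR7+ DC therefore carried Ccl5 at a high level in every library, including those where the pooled level was low, and they held 33.8% of all Ccl5 UMIs in CTRL. In NK cells, which are known producers of this chemokine, Ccl5 was at 2255 CPM in IRF3/7, 745 CPM in the 50 cells of COX2i and 4180 CPM in COX2i + 5-AZA. The 11 NK cells of CTRL held 135 Ccl5 UMIs among their 32453 UMIs, which is a high level too. A low level in NK cells was thus not shared by CTRL and COX2i. The 1% of cells with the most Ccl5 UMIs held 95.7% of them in CTRL and 88.4% in COX2i, against 34.7% in IRF3/7 and 37.2% in COX2i + 5-AZA.

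Neutrophils had the highest Ccl3 and Ccl4 levels in CTRL, IRF3/7 and COX2i + 5-AZA, leaving aside the CD8 T cells, of which a library held at most 8, although in CTRL the interval of Ccl4 overlapped with that of Infl_Mono. Ccl3 was at 1357 CPM (1230 to 1493) in 65 CTRL cells, 2314 CPM (2091 to 2554) in 49 IRF3/7 cells and 1045 CPM (972 to 1122) in 196 COX2i + 5-AZA cells. Ccl4 in the same cells was at 360, 2660 and 1545 CPM. COX2i had 5 neutrophils, too few to describe. Mast cells, with 38 cells or fewer per library, held the highest Ccl7 levels of any class with more than 20 cells, at 2255 CPM (2093 to 2426) in CTRL and 2973 CPM (2745 to 3216) in COX2i + 5-AZA. Their Ccl2 levels were 738 and 1365 CPM.

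**Figure D3:**
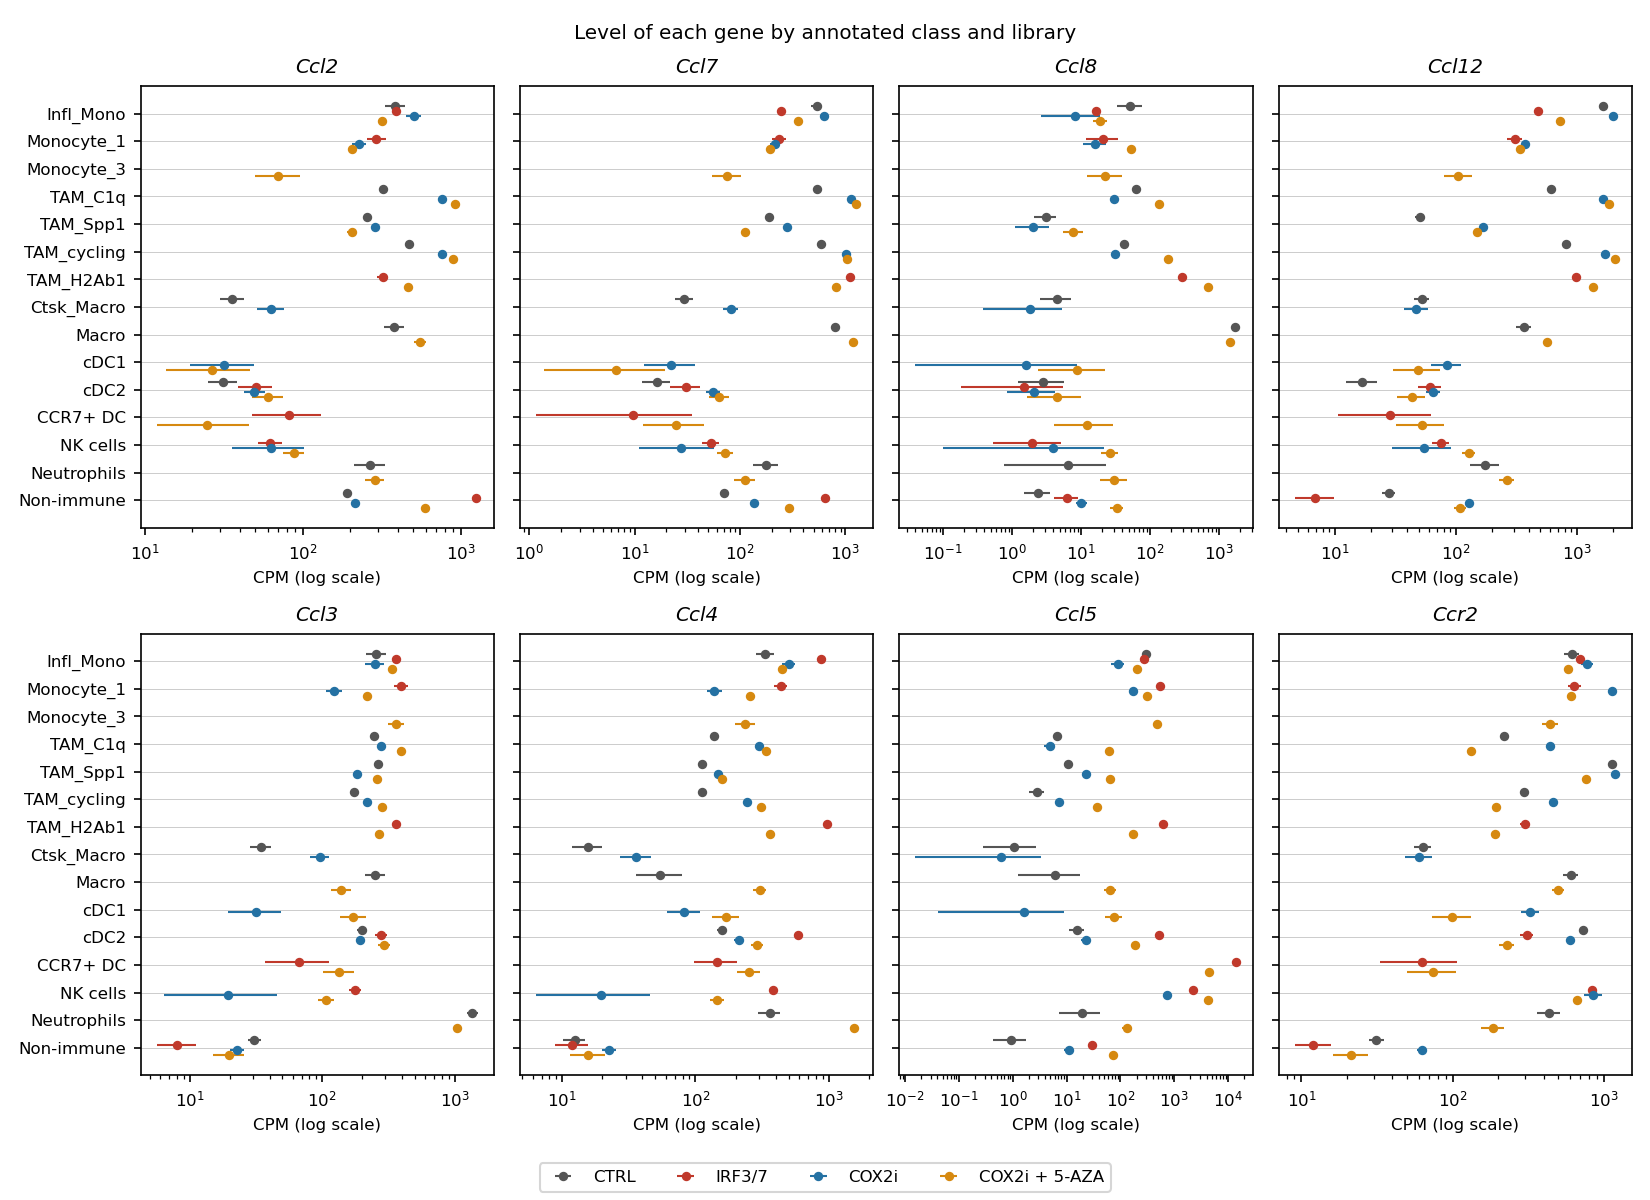
Level of each gene in CPM (log scale) in each annotated class with at least 50 cells, coloured by library, with exact 95% Poisson intervals; classes with no UMI of the gene are not drawn. In CTRL and COX2i + 5-AZA, Ccl8 peaks in Macro and Ccr2 in TAM_Spp1. In IRF3/7, Ccr2 is highest in NK cells and Ccl5 in CCR7+ DC, and the red points of Ccl2 and Ccl7 in the non-immune class lie far to the right.

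Over the 40 sums of a class in a library with at least 50 cells, Ccl2 and Ccl7 followed each other most closely, with a Pearson r of 0.92 on the log2(CPM + 1) scale, and each was the closest of 10212 genes to the other. Ccl3 and Ccl4 had an r of 0.86. The genes closest to Ccr2 were Atp8b4 (r 0.90) and Fli1 (0.86), and those closest to Ccl8 were Gdf15 (0.81), Blvrb (0.77) and Cd163 (0.76). Ccl12 was closest to Ch25h (0.89), C1qb and Nfxl1 (both 0.86), and Ccl5 to Dusp2 (0.87), Helz2 and H2-Q6 (both 0.83). For Ccl4 the first was Themis2 (0.90), for Ccl3 Slc15a3 (0.86) and for Ccl7 after Ccl2 it was Ctsb (0.87). Points of one library share depth and free RNA, and points of one class share its identity, so these values are descriptions.

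Within a class, chemokines also met in the same cells. In TAM_C1q of CTRL, thinned to 2000 UMIs, 558 of 3108 cells had both Ccl2 and Ccl7, 1.89 times the product of the separate shares, and the factor was 1.40 in COX2i and 1.44 in COX2i + 5-AZA. For Ccl3 and Ccl4 the factor was 2.68 in CTRL, 2.84 in COX2i and 2.28 in COX2i + 5-AZA. For Ccr2 and Ccl12 the factor in TAM_C1q was 0.639 in CTRL (164 cells against a product of 257), 0.861 in COX2i (424 against 493) and 0.990 in COX2i + 5-AZA (120 against 121). In TAM_cycling it was 0.567, 0.774 and 0.714, and in TAM_Spp1 1.01, 0.989 and 1.01, so a factor below 1 was not shared by all macrophage classes. These factors have no test. Cells of one class can differ in state, and the part of that in these factors was not tested.

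The first comparison set IRF3/7 against CTRL, to ask how interferon regulatory factors in the cancer cells alter the infiltrate. Within monocytes and macrophages, Ccl4 was 7.20-fold higher (855 against 119 CPM, log2 ratio 2.85, 2.81 to 2.89) and Ccl5 24.5-fold higher (315 against 12.9 CPM, 4.61, 4.50 to 4.73). Ccl3 was at 355 against 213 CPM (0.74, 0.69 to 0.78) and Ccr2 at 636 against 416 CPM (0.61, 0.58 to 0.65). The monocyte chemoattractants moved less, with log2 ratios of 0.17 for Ccl2, -0.40 for Ccl7, -0.075 for Ccl8 and 0.014 for Ccl12.

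Of the 8 members, 2 were higher by 2-fold or more and 0 lower, beside 9.16% and 32.2% of the 11793 genes compared. Over all cells the count was also 2 and 0, beside 10.8% and 15.9%. The median log2 ratio was 0.39 over the members and -0.55 over all genes. With size factors taken from the median gene, which move every ratio up by 0.54, Ccl3 and Ccr2 also passed 2-fold, the members past it numbered 4, and Ccl7 and Ccl8 turned to 0.13 and 0.46. These pooled values compare unlike cells. Infl_Mono supplied 4335 of the 5035 monocytes and macrophages of IRF3/7 and 93 of the 7614 of CTRL.

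Within Infl_Mono, the monocyte chemoattractants were level or lower in IRF3/7. Ccl2 did not differ beyond counting error (388 against 384 CPM, log2 ratio 0.015, -0.20 to 0.23). Ccl7 was at 244 against 535 CPM (-1.14), Ccl8 at 16.8 against 51.6 CPM (-1.62) and Ccl12 at 482 against 1642 CPM (-1.77). Ccl4 was higher in this class too (876 against 332 CPM, 1.40), whereas the level of Ccl5 was not (270 against 302 CPM, -0.16, -0.40 to 0.090). Few cells carried the Ccl5 of CTRL, where 6.67% of thinned Infl_Mono cells (2.49 to 13.9) had a UMI of it, against 15.6% (14.4 to 16.9) in IRF3/7, and 7.53% against 20.0% before thinning. The 6 macrophage markers, all detected, summed to 50551 CPM in the 93 CTRL cells of Infl_Mono and to 9568 CPM in those of IRF3/7, and the 3 monocyte markers in the table to 4112 and 10959 CPM. The part of these markers in the lower Ccl7, Ccl8 and Ccl12 was not tested.

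In the non-immune class, Ccl2 was at 1249 CPM (1217 to 1282) in IRF3/7 and at 190 CPM (182 to 199), 214 CPM and 591 CPM in CTRL, COX2i and COX2i + 5-AZA. Ccl7 there was at 639, 70.5, 135 and 295 CPM. The log2 ratios of IRF3/7 to CTRL were 2.72 (2.64 to 2.79) and 3.18 (3.06 to 3.30), whereas Ccl12 (6.91 against 27.9 CPM, -2.01) and Ccr2 (log2 ratio -1.38) were lower. The 4 fibroblast markers in this class summed to 6705 CPM in IRF3/7 against 9234 CPM in CTRL, the 6 macrophage markers to 264 against 2641 CPM, and Ptprc was at 18.3 against 26.9 CPM. Of the 5 melanoma markers 2 were in the table, with 29.4 against 30.7 CPM, so fibroblasts and cancer cells of this class could not be told apart. In cDC2 of IRF3/7, Ccl5 was at 526 against 15.4 CPM (5.09, 4.65 to 5.57) and Ccl4 at 587 against 159 CPM (1.89).

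The second comparison set COX2i against CTRL. Within monocytes and macrophages, Ccl12 was 2.73-fold higher (1444 against 529 CPM, log2 ratio 1.45, 1.43 to 1.47). Ccl2 (671 against 332 CPM, 1.02), Ccl7 (909 against 454 CPM, 1.00) and Ccl4 (240 against 119 CPM, 1.01) were each close to 2-fold higher. Ccl8 went the other way, at 32.5 against 60.2 CPM (-0.89, -0.97 to -0.81). Ccr2 was at 546 against 416 CPM (0.39), and Ccl3 (0.074) and Ccl5 (0.12, -0.022 to 0.27) were near their CTRL level.

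Here 4 of 8 members were higher by 2-fold or more and 0 lower, beside 1.93% and 4.70% of 11905 genes. Over all cells 1 was higher and 0 lower, beside 2.45% and 3.16%. The median log2 ratio was 0.70 over the members and 0.0098 over all genes. Ccl2, Ccl7 and Ccl4 lay at the limit, and the count was 1 (Ccl12) at the class mix of CTRL and 1 with the mean over cells in place of the sum. All 4 genes were still higher in both.

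The difference was present inside macrophage classes. In TAM_C1q, Ccl2 was at 761 against 320 CPM (1.25), Ccl7 at 1136 against 543 CPM (1.07) and Ccl12 at 1657 against 612 CPM (1.44). Ccr2 was higher there as well (439 against 219 CPM, 1.00) and Ccl8 lower (30.8 against 63.2 CPM, -1.04). The size varied between classes, and TAM_C1q had the highest ratio of Ccl2, which was at 0.70 in TAM_cycling and 0.15 in TAM_Spp1. Ccl2, Ccl7 and Ccl4 were higher beyond counting error in 7 of 7 classes compared, but past 2-fold in 1, 3 and 3 of them. In Infl_Mono the ratio of Ccl7 was 0.24 (0.0061 to 0.47) while the share of cells with a UMI was lower in COX2i, at 18.3% (11.9 to 26.4) against 32.2% (22.8 to 42.9) after thinning and 26.2% against 45.2% before it. For Ccl4 there the thinned shares were 25.8% and 32.2%, beside a ratio of 0.60. Ccl12 was higher beyond counting error in 6 of 7, with Ctsk_Macro the exception (-0.15, -0.55 to 0.24). The summed macrophage markers of TAM_C1q were 32436 CPM in COX2i and 62318 CPM in CTRL, so cells of that name differed in other genes too, and the part of this in the chemokine values was not tested.

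Over monocytes and macrophages as a whole, more cells of COX2i than of CTRL carried Ccl2, Ccl7 and Ccl12 at once. Of monocytes and macrophages thinned to 2000 UMIs, 8.28% in CTRL, 7.91% in IRF3/7, 21.5% in COX2i and 14.1% in COX2i + 5-AZA had a UMI of each of Ccl2, Ccl7 and Ccl12. Before thinning these shares were 20.9%, 12.8%, 42.0% and 27.2%. In TAM_C1q the thinned share was 9.94% in CTRL and 27.7% in COX2i, in TAM_cycling 17.1% and 28.5%, and in TAM_Spp1 1.51% and 4.18%. Infl_Mono showed no such rise, with 15.6% of 90 cells in CTRL and 11.7% of 120 in COX2i (28.0% and 16.2% before thinning). These shares rest on few cells and carry no interval. In Ctsk_Macro the shares were 0.536% of 373 cells and 0 of 150 (2.37% and 3.18% before thinning). The share of TAM_C1q cells with Ccl12 was 33.3% (31.7 to 35.0) and 55.9% (53.6 to 58.1) after thinning, against 52.7% and 75.4% before it. In cDC2, where Ccl12 was low, the thinned shares were 3.94% and 7.66%, at median depths of 4106.0 and 4577.5 UMIs against 6857.0 and 7368.0 UMIs in TAM_C1q.

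The remaining comparisons concerned the addition of 5-AZA to celecoxib. They share libraries with each other and with the comparison above. Against COX2i, Ccl5 was 10.9-fold higher within monocytes and macrophages (153 against 14.0 CPM, log2 ratio 3.45, 3.35 to 3.55) and Ccl8 4.93-fold higher (160 against 32.5 CPM, 2.30, 2.23 to 2.37). Ccr2 was lower (379 against 546 CPM, -0.53, -0.55 to -0.50), as were Ccl2 (558 against 671 CPM, -0.27), Ccl7 (691 against 909 CPM, -0.39) and Ccl12 (1174 against 1444 CPM, -0.30). Ccl3 and Ccl4 were slightly higher (0.33 and 0.32).

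Of the 8 members 2 were higher by 2-fold or more and 0 lower, beside 6.16% and 9.77% of 11940 genes, and the median log2 ratio was 0.025 over the members and -0.19 over all genes. Over all cells the count was 2 and 0, beside 6.85% and 11.9%. Ccr2 was lower beyond counting error in 9 of 9 classes compared, from -0.36 in NK cells to -1.74 in TAM_C1q. In TAM_C1q it was at 132 CPM, against 439 CPM in COX2i and 219 CPM in CTRL, and the share of thinned cells with a UMI was 15.6% (13.7 to 17.7), against 44.5% and 24.8%. Before thinning it was 34.1%, 59.7% and 36.0%. At the class mix of COX2i the log2 ratio of Ccr2 was -1.11, past 2-fold. Monocytes, among which Ccr2 was at 602 CPM in COX2i + 5-AZA and 1044 CPM in COX2i, made up 4684 of the 8801 monocytes and macrophages here and 558 of 7378 in COX2i.

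The signs of Ccl2, Ccl7 and Ccl12 depended on that mix, whereas Ccl8 stayed higher at 2.23. At the class mix of COX2i the log2 ratios were 0.21 for Ccl2, 0.050 for Ccl7 and 0.22 for Ccl12, all of the opposite sign to the pooled values. In TAM_C1q and TAM_cycling all 3 genes were at or above their COX2i level, with log2 ratios of 0.27, 0.17 and 0.14 and of 0.23, 0.030 and 0.28. In Infl_Mono they were lower (-0.66, -0.83 and -1.45), as in TAM_Spp1 (-0.49, -1.33 and -0.15), where Ccl7 was at 112 against 281 CPM. In Monocyte_1, with 3640 cells in COX2i + 5-AZA, they were at -0.16, -0.14 (-0.30 to 0.021) and -0.14. Over 9 classes compared, Ccl12 was higher beyond counting error in 3 and lower in 6, and Ccl2 in 3 and 3. Ccl7 was higher in 4 of 8 and lower in 2. At the class mix, TAM_cycling had 56.5% of the weight. Macrophage markers in Infl_Mono summed to 6888 CPM in COX2i + 5-AZA and to 17395 CPM in COX2i. Their part in the lower values of Infl_Mono was not tested.

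**Figure D4:**
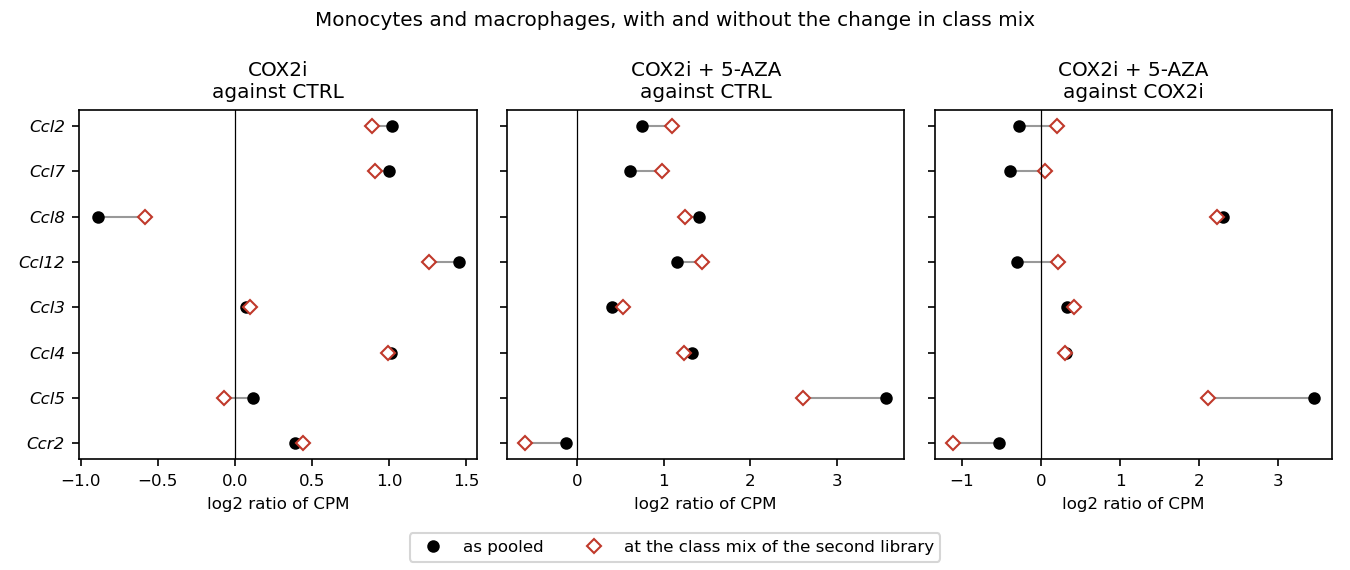
Log2 ratio of CPM within monocytes and macrophages for the 3 comparisons without IRF3/7, as pooled (black circles) and with every class given the weight it has in the second library (open diamonds). For COX2i + 5-AZA against COX2i, Ccl2, Ccl7 and Ccl12 cross 0 and Ccr2 goes from -0.53 to -1.11, while Ccl8 stays at 2.30 and 2.23.

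Ccl8 and Ccl5 were higher with 5-AZA in each class with at least 50 cells on both sides. Macro and CCR7+ DC, with the high levels given above, are not among these, and neither gene was higher there: Ccl8 in Macro was at 1443 against 1620 CPM in the 23 COX2i cells, and Ccl5 in CCR7+ DC at 4441 against 7550 CPM in the 28 COX2i cells. Ccl8 was past 2-fold in 7 of 7 classes and beyond counting error in 6, with Infl_Mono the exception (1.22, -0.069 to 2.88, on 75 against 5 UMIs). The value in NK cells was 2.75 (0.21 to 8.08) and rests on 50 UMIs against 1 UMI in COX2i. In TAM_cycling it was at 186 against 31.2 CPM (2.58), and in TAM_C1q at 138 against 30.8 CPM (2.17). Ccl5 was higher in 9 of 9 classes. It was at 0.88 in Monocyte_1, and in TAM_C1q it was at 61.6 against 4.89 CPM (3.65). In cDC1 it was at 5.56 (2.99 to 10.91), on 34 UMIs against 1. In TAM_C1q the markers of NK cells, which carry Ccl5, summed to 18.3 CPM in COX2i + 5-AZA (5 of 5 detected) and to 0.879 CPM in COX2i (4 of 5), and their part in the Ccl5 values was not tested.

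Against CTRL, COX2i + 5-AZA combined these differences. Within monocytes and macrophages Ccl5 (153 against 12.9 CPM, 3.57), Ccl8 (160 against 60.2 CPM, 1.41), Ccl4 (299 against 119 CPM, 1.33) and Ccl12 (1174 against 529 CPM, 1.15) were past 2-fold. That was 4 of 8 members higher and 0 lower, beside 5.65% and 11.3% of 12001 genes, whose median log2 ratio was -0.16. Over all cells the count was also 4 and 0, beside 6.49% and 11.4%. Ccr2 was at 379 against 416 CPM (-0.13), a sign that turned with size factors of the median gene (0.031). Within classes it was lower beyond counting error in 7 of 8 and higher in 0, with log2 ratios of -0.73 in TAM_C1q, -0.57 in TAM_Spp1 and -1.68 in cDC2, and at the class mix of CTRL the ratio was -0.60. Ccl2 and Ccl7 were higher by 0.75 and 0.61.

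**Figure D5:**
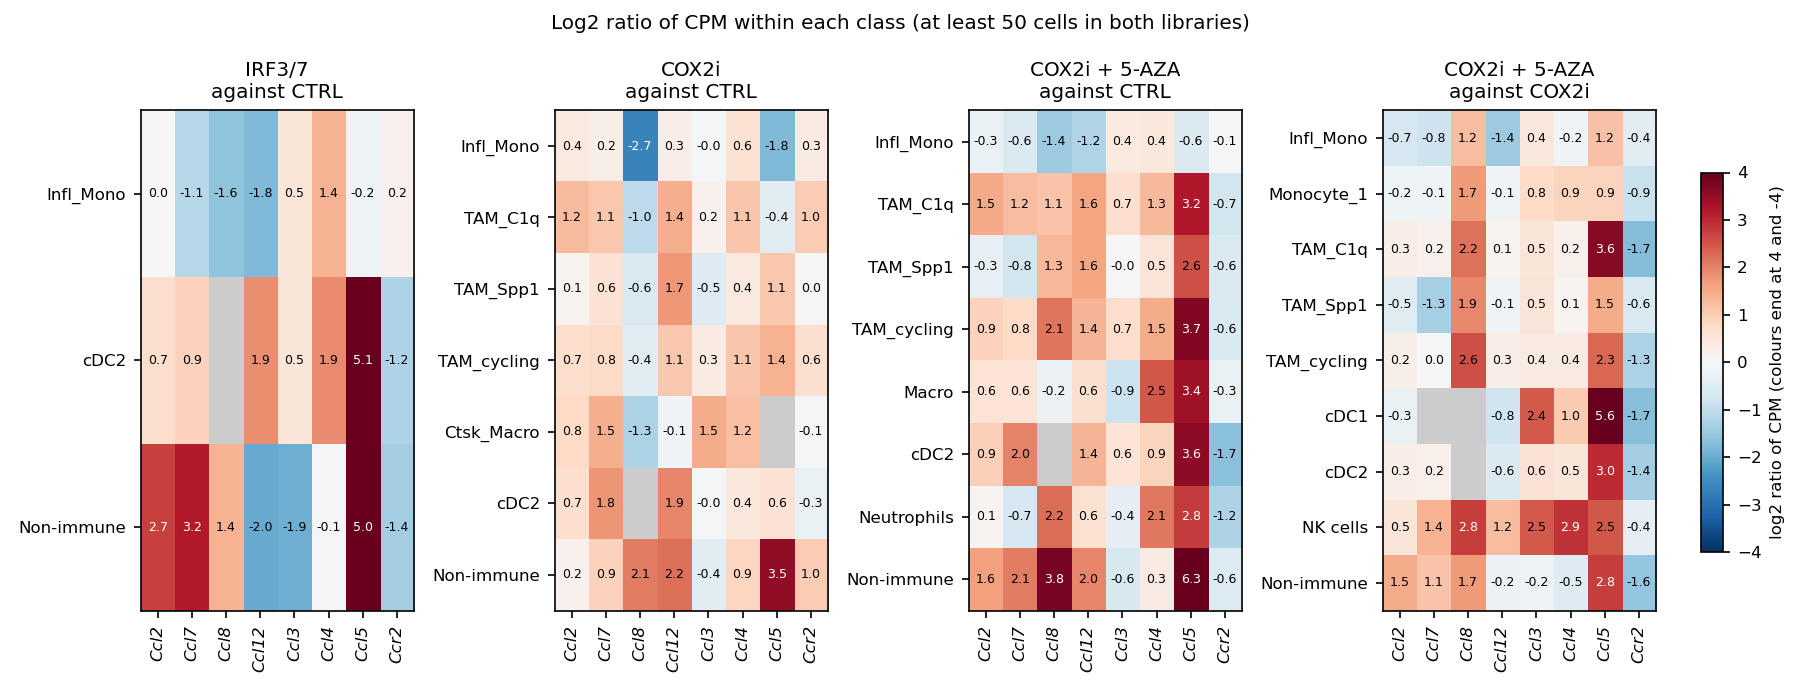
Log2 ratio of CPM of each gene inside single classes (50 cells or more on both sides), for the 4 comparisons; red is higher in the first library, blue lower, and grey marks fewer than 20 UMIs in both libraries together. In the panel of COX2i + 5-AZA against COX2i the Ccr2 column is blue in all 9 classes and the Ccl5 column red in all 9, with Ccl5 in cDC1 and Ccl8 in NK cells resting on 1 UMI in COX2i.

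The ratios of chemokines to each other differed between classes and, in several classes, also between libraries. The log2 ratio of Ccl12 to Ccl2 UMIs was 0.94, 1.12 and 0.99 in TAM_C1q of CTRL, COX2i and COX2i + 5-AZA and 0.79, 1.17 and 1.22 in TAM_cycling. In TAM_Spp1 it was -2.34, -0.77 and -0.43, and in the non-immune class -2.77, -0.74 and -2.45, with -7.50 in IRF3/7. In Infl_Mono it was 2.10, 1.97 and 1.18, with 0.31 in IRF3/7, and in Ctsk_Macro 0.56 in CTRL and -0.41 in COX2i. That of Ccl4 to Ccl3 over monocytes and macrophages was -0.84 in CTRL, 1.27 in IRF3/7, 0.10 in COX2i and 0.086 in COX2i + 5-AZA. Each probe captures its transcript with its own efficiency, so only differences of one ratio between classes or libraries can be read.

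Other genes of chemokine signalling and of monocytes were described within monocytes and macrophages from 5 lists. Of 14 other CC chemokines 8 were in the table. In IRF3/7 against CTRL, 0 of the 6 with enough UMIs were past 2-fold higher and 4 lower, among them Ccl9 (461 against 965 CPM, -1.07) and the eosinophil chemokine Ccl24 (1.40 against 19.6 CPM, -3.81). Against COX2i, COX2i + 5-AZA had 2 of 7 higher and 0 lower, with Ccl24 at 110 against 5.21 CPM (4.40). The list of other CC and CX3C receptors with Cx3cl1 had 9 of 14 genes in the table. Of these, the atypical receptor Ccrl2 was at 437 against 138 CPM in IRF3/7 against CTRL (1.66). Ccrl2 was also higher in COX2i + 5-AZA than in COX2i (309 against 92.4 CPM, 1.74).

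Classical monocyte genes, 9 of which were tested, counted 6 higher and 2 lower in IRF3/7 against CTRL, 1 and 3 in COX2i against CTRL, 3 and 3 in COX2i + 5-AZA against CTRL, and 6 and 3 in COX2i + 5-AZA against COX2i. Plac8, a gene of Ly6C-high monocytes, was at 75.8 CPM in CTRL, 6882 CPM in IRF3/7, 198 CPM in COX2i and 1505 CPM in COX2i + 5-AZA. Chil3 was at 336, 4257, 137 and 707 CPM and Hp, haptoglobin, at 44.5, 805, 13.1 and 87.1 CPM in the same order, so unlike Plac8 both were lower in COX2i than in CTRL (-1.29 and -1.76), as was Gsr (-1.33). The genes lower in IRF3/7 than in CTRL were F13a1, a coagulation factor subunit (449 against 2084 CPM, -2.21), and Fn1, fibronectin (798 against 5511 CPM, -2.79). They were also lower in COX2i + 5-AZA than in CTRL (-1.79 and -1.99). Patrolling monocyte genes, 10 tested, counted 6 higher and 1 lower, 2 and 1, 4 and 1, and 4 and 0 in the same comparisons, with Ace at 4.26 CPM in CTRL, 64.0 CPM in IRF3/7, 7.69 CPM in COX2i and 25.3 CPM in COX2i + 5-AZA. Of monocyte growth factors and their receptors, 7 tested, Csf1r was lower in IRF3/7 than in CTRL (485 against 1295 CPM, -1.42) and Csf3r higher (412 against 59.6 CPM, 2.79). Counts over this list were 1 higher and 2 lower, 0 and 1, 0 and 1, and 1 and 1. The shares of all genes past 2-fold in these comparisons are those given above.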

How the data were processed

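The 4 libraries of CD45-sorted cells were assayed with fixed-RNA probes (Chromium), multiplexed by probe barcode. Per the labels, the authors used Cell Ranger 7.1.0 and mm10, and per their methods they filtered cells on detected genes and on mitochondrial and ribosomal content and annotated clusters. The authors deposited UMI counts without normalisation, for 34447 cells and 12584 genes, and the sum of each cell equalled its deposited total. No doublet caller was run here, and none is named in the methods used.

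UMIs were summed over cells and given as CPM with exact Poisson intervals. Ratios carry exact conditional intervals and shares Clopper-Pearson intervals, all at 95% and for counting error only, since molecules of 1 library are not replicates. The floor was 3 UMIs per library. A ratio counted as past 2-fold at an absolute log2 of 1, where the pair of libraries held 20 UMIs or more of the gene. Classes needed 50 cells in comparisons between libraries, in the order of classes and in the pattern of genes, and the levels of smaller classes are given with their number of cells. Thinning to 2000 UMIs left out 3.13%, 19.0%, 3.10% and 7.05% of the cells of CTRL, IRF3/7, COX2i and COX2i + 5-AZA. For a value at the class mix of another library, classes with at least 20 cells in both were weighted by the UMIs they have in that library. The members were named in full. From each list up to 4 genes could be named, those with the largest ratio past 2-fold that reached 10 CPM, and for each member the 3 genes closest in pattern among those with 1000 UMIs. Some genes that this rule names are not reported here. Members, lists and markers were chosen with earlier results of these data known. Python 3.11.15, numpy 2.4.6, scipy 1.17.1 and pandas 2.3.3 were used, and the code for ratios was tested on simulated data.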

Additional observations from a re-analysis of the deposited data

Results flagged for a closer look

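The values below are log2 ratios within single classes, each past 2-fold and beyond counting error. In each case the same gene went in one direction in one class and in the other direction in another, under the same comparison. None of these differences between classes was tested, since each library stands alone. CTRL entered with 93 Infl_Mono cells, whose macrophage markers summed to 50551 CPM, and 7 of the Infl_Mono values below rest on those cells.

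In IRF3/7 against CTRL, Ccl12 was at 1.85 in cDC2, -1.77 in Infl_Mono and -2.01 in the non-immune class. Ccl7 was at 3.18 in the non-immune class and -1.14 in Infl_Mono, and Ccl8 at 1.39 and -1.62 in the same classes.

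In COX2i against CTRL, Ccl5 was at 1.08 in TAM_Spp1, 1.40 in TAM_cycling, 3.55 in the non-immune class and -1.77 in Infl_Mono, where 5.38% of 130 COX2i cells and 7.53% of 93 CTRL cells carried the UMIs. Ccl8 was at 2.09 in the non-immune class, -1.04 in TAM_C1q and -2.66 in Infl_Mono, the last on 5 against 25 UMIs.

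In COX2i + 5-AZA against CTRL, Ccl12 was at 1.58 in TAM_C1q, 1.57 in TAM_Spp1, 1.36 in TAM_cycling, 1.36 in cDC2 and 1.96 in the non-immune class, against -1.19 in Infl_Mono. Ccl8 was at 1.13 in TAM_C1q, 1.32 in TAM_Spp1, 2.13 in TAM_cycling, 2.24 in neutrophils and 3.79 in the non-immune class, against -1.44 in Infl_Mono. The value in neutrophils rests on 22 against 2 UMIs (0.21 to 5.37).

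In COX2i + 5-AZA against COX2i, Ccl12 was at 1.22 in NK cells and -1.45 in Infl_Mono. Ccl7 was at 1.40 in NK cells and 1.13 in the non-immune class, against -1.33 in TAM_Spp1.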

How the results depend on the processing

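Counts of members past 2-fold depended most on the class mix. At the mix of the compared library, IRF3/7 against CTRL gave 1 lower member over all cells in place of 0, and within monocytes and macrophages 1 higher in place of 2 and 2 lower in place of 0, but that estimate covers 30.1% of the CTRL UMIs and puts 95.8% of its weight on the 20 TAM_cycling cells of IRF3/7. Under the same setting, COX2i against CTRL gave 1 higher in place of 4 within monocytes and macrophages, and COX2i + 5-AZA against COX2i gave 1 lower in place of 0 over all cells and 1 in place of 0 within monocytes and macrophages, Ccr2 in both. With median-of-ratios size factors, IRF3/7 against CTRL gave 4 higher in place of 2 within monocytes and macrophages. With the mean of CPM over cells, COX2i against CTRL gave 1 higher in place of 4. Over all cells that comparison gave 2 higher in place of 1 in cells with more than 2000 genes and 2 in cells of droplets in 1 library, a setting chosen after seeing the data. Beyond these construction effects the cause was not tested. The counts were equal or close in all 16 cases with no minimum of UMIs and without the 1% of cells with the most UMIs. Small shifts of a count were not listed as changes here. Of the log2 ratios over all cells and within monocytes and macrophages, 1 of 64 took the other sign in droplets in 1 library and 16 of 64 at the class mix. No paired analysis was possible because each group is 1 library. The ratio of Ccr2 to Cx3cr1 was not run. With 1 library of 3 pooled tumours per group, intervals hold counting error only, and classes with few cells, such as the 93 Infl_Mono cells of CTRL, limit what could be compared within a class.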
